A study of Mus musculus with 14 samples.

Results

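Genes of the Notch pathway were followed across skeletal muscle of male mice that differed in endothelial c-Myc expression and in diet. They were chosen by name: the receptors Notch1, Notch2, Notch3 and Notch4, the ligands Dll4, Jag1 and Jag2, and the target genes Hey1, Heyl and Hes1, 10 of the 54532 genes in the count table. Each name matched 1 row, and all 10 passed a filter on low counts that left 15458 genes for testing.

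Notch signalling passes between neighbouring cells. A Delta-like or Jagged ligand on the surface of a cell binds a Notch receptor on the next, the receptor is cut by ADAM proteases and then by gamma-secretase, and its freed intracellular part enters the nucleus, where it joins RBPJ and a Mastermind-like coactivator to switch on target genes such as those of the Hes and Hey families. In blood vessels, Dll4 and Notch1 restrain endothelial sprouting and help set arterial identity, Notch4 is found mainly in endothelium, and Notch3 is the characteristic receptor of pericytes and vascular smooth muscle cells, together called mural cells. In skeletal muscle the pathway is also known for keeping satellite cells, the muscle stem cells, in a resting state.

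RNA-sequencing had been carried out on muscle of FVB/N mice, with soleus and gastrocnemius named as the tissues in the study's methods, although the labels do not say which of them gave each library. EC-Myc OE mice (OE) carried a Tet-O-Myc transgene, which encodes human c-MYC and sits on the Y chromosome, together with Cdh5-tTA, a doxycycline-repressed transactivator driven by an endothelial promoter. Overexpression began when doxycycline food was withdrawn at 4 to 6 weeks of age. Control mice (CT) were littermates with Tet-O-Myc but without tTA, so all mice carried the transgene and it could be active only in OE. Each genotype was kept on control diet (CTD, TD.08485) or on a high-fat western diet (WD, TD.88137) for 20 weeks by the labels, a duration that the study's text gives differently for the transcriptome. The labels gave 3 CT-CTD, 3 CT-WD, 4 OE-CTD and 4 OE-WD libraries, 14 in all. Nothing in them says how the libraries of a group relate to individual animals, so the p-values measure only the spread between these libraries. Transgene reads, which are human in sequence, were not examined.

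The study's text divides the smaller from the larger groups by diet, whereas the labels divide them by genotype. The labels were kept. If the names CT-WD and OE-CTD were exchanged, OE-WD against CT-WD would become OE-WD against OE-CTD, CT-WD against CT-CTD would become OE-CTD against CT-CTD, the average genotype difference would become the average diet difference, and the interaction would stay as it is. The sample codes add a further limit, because all 4 OE-WD libraries share a code number and 3 of the 4 OE-CTD libraries share another, while no code number is shared within the CT groups. The codes of CT-CTD 1 and CT-WD 1 are neighbouring numbers, as are those of the remaining CT libraries, and the OE codes lie in other ranges. What the numbers stand for is not stated. In the OE mice they cannot be told apart from the diet group. Between CT and OE the code ranges cannot be told apart from genotype, which holds for every genotype difference below.

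Total counts per library ranged from 21833839 to 28519159, and the count of a member in a library ranged from 71 for Dll4 to 2222 for Notch3. Muscle fibre genes marked the tissue as labelled, with a summed level of 124994 to 180515 CPM (counts scaled to the same library size with edgeR's TMM factors, so that libraries can be compared) over 10 genes and Myh4, the fast myosin heavy chain IIb, as the most abundant. Some libraries stood apart. OE-CTD 4 and OE-WD 4 had the highest muscle fibre sums, 176063 and 180515 CPM, and the lowest TMM factors, 0.888 and 0.899. CT-WD 1 had a fibroblast marker sum of 1085 CPM against 437 and 445 CPM in CT-WD 2 and CT-WD 3. CT-WD 3 had the lowest Dll4 level and the highest Hey1 level of all 14 libraries.

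Levels of different genes were compared on the deposited FPKM scale, which divides by gene length. Over the 14 libraries, Hes1, a transcriptional repressor, had the highest mean level (10.2 ± 2.63 FPKM, SD), followed by the ligand Jag2 (9.63 ± 0.992 FPKM) and the receptor Notch3 (8.29 ± 1.48 FPKM). These leading genes were not separated by their spread: Hes1 was above Jag2 in 6 of 14 libraries and Jag2 above Notch3 in 11 of 14. By group, Hes1 had the higher mean only in OE-CTD (12.5 against 10.1 FPKM for Jag2). Jag2 was higher in CT-CTD (8.81 against 8.68 FPKM), CT-WD (8.77 against 8.57 FPKM) and OE-WD (10.39 against 10.29 FPKM). A step then followed, since every library had more Notch3 than any library had Heyl. Heyl (4.00 FPKM), Notch4 (3.70 FPKM), Dll4 (2.88 FPKM), Jag1 (2.61 FPKM) and Hey1 (2.30 FPKM) formed a middle set in which each neighbour overlapped the next in range. Notch1 (1.10 FPKM) and Notch2 (0.893 FPKM) stood lowest, with all Hey1 values above all Notch1 values. Among all genes tested, the mean level of Hes1 was at percentile 79.0 and that of Notch2 at percentile 30.2.

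The receptor pool of the muscle was thus mostly Notch3. Its share of the summed receptor FPKM was 59.0% ± 4.74 (SD over 14 libraries), against 26.6% ± 4.28 for Notch4, 7.92% ± 1.01 for Notch1 and 6.41% ± 0.692 for Notch2. Of the summed FPKM of the ligands, Jag2 made up 63.9% ± 5.85, Dll4 18.8% ± 5.04 and Jag1 17.3% ± 2.66. The highest level of Dll4 was 4.89 times its lowest, which was that of CT-WD 3 (0.899 FPKM), and the other 13 libraries ran from 2.02 to 4.40 FPKM. Jag2 varied least, at 1.37 times. These are shares of muscle RNA from all cell types and not of any cell type.

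The main question of the design was how OE differed from CT. Averaged over diets, 3 of the 10 Notch genes were called higher in OE and none lower, where a call is an adjusted p under 0.05 by edgeR's quasi-likelihood test with Benjamini-Hochberg adjustment over the 15458 genes. They were Heyl, Notch3 and Jag2, which are a target, a receptor and a ligand. Of all genes tested, 8.49% were called in this comparison. At an unadjusted p under 0.05 the count was 5 of 10, with Hes1 and Notch2 added, all 5 higher in OE, against 23.9% of all genes. The median log2 difference of the 10 genes was 0.21, against -0.0012 over all genes tested. Muscle is a mixture of cell types, so fewer cells of a type and less RNA per cell cannot be told apart in any of these values.

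**Figure D1:**
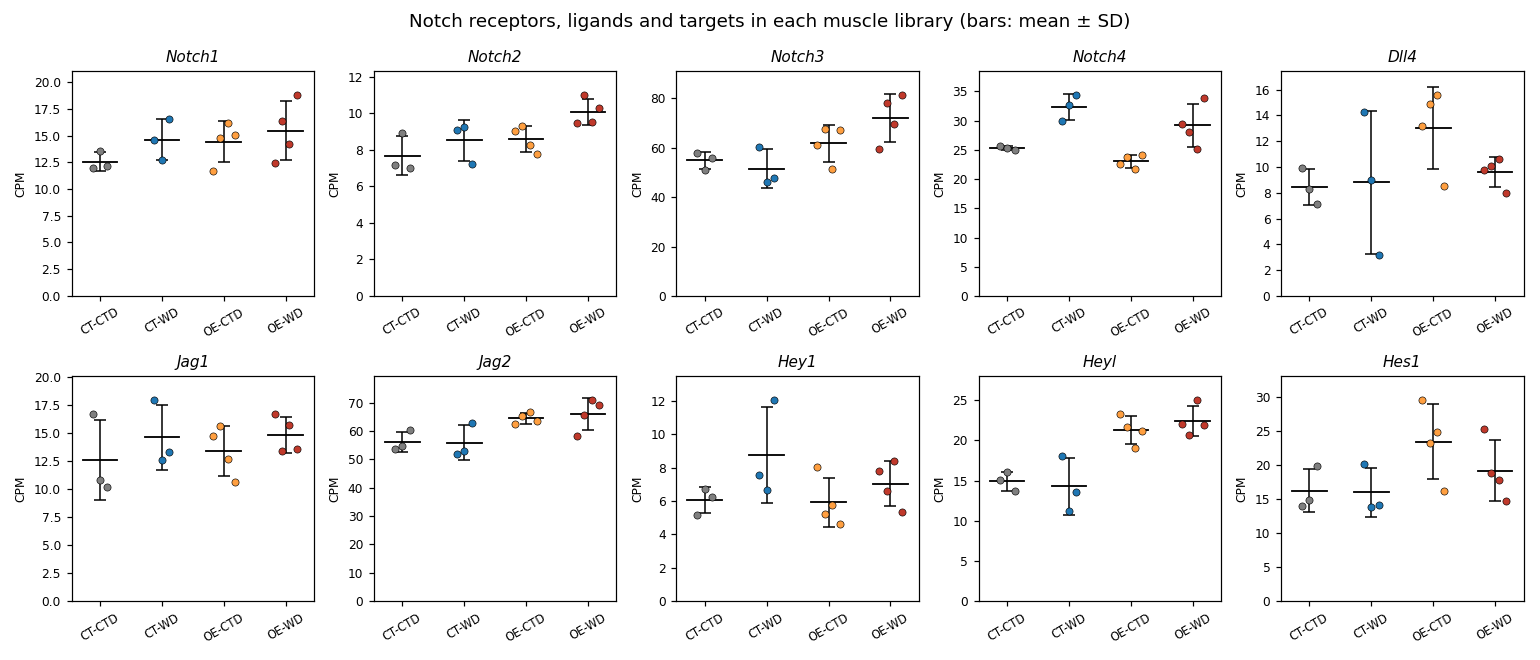
Level of each Notch gene in every library, in CPM on the vertical axis from 0, by group on the horizontal axis; points are libraries and bars are the group mean ± SD (3 libraries in each CT group and 4 in each OE group). All OE libraries sit above all CT libraries for Heyl, and all WD libraries of a genotype sit above its CTD libraries for Notch4.

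Heyl, a basic helix-loop-helix repressor and Notch target known from vascular smooth muscle, showed the clearest separation by genotype. Its gene (ENSMUSG00000032744) lies on the plus strand of chromosome 4 at 123233556 to 123249875 on GRCm38. The level was 15.1, 16.0 and 13.7 CPM in the CT-CTD libraries and 18.1, 11.2 and 13.6 CPM in the CT-WD libraries. It was 23.3, 21.6, 19.0 and 21.1 CPM in OE-CTD and 22.02, 20.7, 25.0 and 21.98 CPM in OE-WD. The genotypes did not overlap, the lowest of 8 OE libraries being above the highest of 6 CT libraries, which was CT-WD 1. Averaged over diets, Heyl rose by 0.58 ± 0.097 on the log2 scale (SE, 1.49-fold; edgeR adjusted p = 0.00299). The call was kept in 21 of 21 other settings, including each library left out in turn, where the log2 difference was lowest when CT-WD 2 was left out (0.50) and highest when CT-WD 1 was (0.68), with an edgeR adjusted p of at most 0.0117 when a library was left out. Its fold change was just under 1.5, and the call was lost under a stricter rule that required a fold change over 1.5.

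Within diets the size of the Heyl difference was similar, with less certain calls. On WD it was 0.65 ± 0.14 on the log2 scale (1.56-fold; edgeR adjusted p = 0.0430). This call rested on single libraries: without CT-WD 1 the difference was 0.85 (edgeR adjusted p = 0.00211), and without any of the other 13 libraries the call was lost, with edgeR adjusted p from 0.0512 to 0.191. It was also lost in limma at both pseudocounts and with only the libraries compared. On CTD it was 0.51 ± 0.14 (1.43-fold; edgeR adjusted p = 0.0614), which missed the threshold although the groups did not overlap. Without CT-WD 1 or CT-WD 2, which are in neither group, the difference had an edgeR adjusted p of 0.0149 or 0.0320, and it was called by DESeq2, with no filter on low counts and with only the libraries compared.

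Notch3, the mural cell receptor, had the smallest genotype p among the receptors. The gene (ENSMUSG00000038146) lies on the minus strand of chromosome 17 at 32120820 to 32166880 as the count table lists it. Notch3 stood at 57.6, 51.0 and 56.0 CPM in CT-CTD and 60.4, 46.0 and 47.9 CPM in CT-WD. It was 61.0, 67.4, 51.3 and 67.1 CPM in OE-CTD and 59.5, 77.9, 69.4 and 81.3 CPM in OE-WD. The genotypes overlapped, since OE-CTD 3 and OE-WD 1 were within the CT range, and the highest levels were in OE-WD 2 and OE-WD 4. Notch3 rose by 0.33 ± 0.089 on the log2 scale averaged over diets (1.25-fold; edgeR adjusted p = 0.0345). The call was kept without CT-CTD 1, CT-WD 1, OE-CTD 3, OE-CTD 4 or OE-WD 1, and lost without any of the other 9 libraries, with edgeR adjusted p from 0.0513 to 0.0976. It was also lost with the replicate number as a block in the model (edgeR adjusted p = 0.0716) and in limma on log2(FPKM + 1).

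The Notch3 difference was larger in size on WD than on CTD, but this contrast between diets was not past the threshold. On WD it was 0.49 ± 0.13 on the log2 scale (edgeR adjusted p = 0.0837), and it was called without CT-WD 1 (0.62, edgeR adjusted p = 0.0114) or without OE-WD 1 (0.57, edgeR adjusted p = 0.0479), by DESeq2, and by edgeR with no filter on low counts. On CTD the log2 difference was 0.17 ± 0.13 (edgeR adjusted p = 0.574). The interaction was 0.32 ± 0.18 (edgeR adjusted p = 0.857), with the smallest interaction p of the 10 genes.

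Jag2 encodes a Jagged ligand and was the most abundant ligand on the FPKM scale. The gene (ENSMUSG00000002799) lies on the minus strand of chromosome 12 at 112907819 to 112929776. Jag2 stood at 53.7, 54.8 and 60.2 CPM in CT-CTD and 52.0, 52.9 and 62.9 CPM in CT-WD. It was 62.5, 65.3, 66.6 and 63.5 CPM in OE-CTD and 58.3, 65.7, 70.9 and 69.3 CPM in OE-WD. On CTD all OE libraries were above all CT libraries, while on WD OE-WD 1 was below CT-WD 3. Jag2 rose by 0.22 ± 0.062 on the log2 scale averaged over diets (1.16-fold; edgeR adjusted p = 0.0411). The call was kept without CT-WD 3, OE-CTD 4 or OE-WD 1, and lost without any of the other 11 libraries, with edgeR adjusted p from 0.0528 to 0.111. It was also lost with no filter on low counts and in limma on log2(FPKM + 1).

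Hes1 and Notch2 were past the unadjusted threshold only, in the fit of all libraries. Hes1 (ENSMUSG00000022528, chromosome 16, 30064384 to 30067796, plus strand) had 13.96, 14.9 and 19.8 CPM in CT-CTD and 20.1, 13.8 and 14.1 CPM in CT-WD. It had 29.5, 23.2, 24.8 and 16.2 CPM in OE-CTD and 25.3, 18.9, 17.7 and 14.7 CPM in OE-WD. The genotypes overlapped, with OE-CTD 4 and OE-WD 4, the libraries richest in muscle fibre transcripts, lowest in their groups. The average log2 difference was 0.39 ± 0.15 (edgeR adjusted p = 0.121). It was called without CT-WD 1 (0.50, edgeR adjusted p = 0.0387) or without OE-CTD 4 (0.46), with no filter on low counts, and with the replicate number as a block (0.51, edgeR adjusted p = 0.0154). Notch2, a receptor that acts beside Notch3 in vascular smooth muscle, had 7.16, 8.91 and 6.99 CPM in CT-CTD, 9.07, 9.28 and 7.25 CPM in CT-WD, 9.05, 9.30, 8.29 and 7.76 CPM in OE-CTD and 9.45, 11.01, 9.53 and 10.3 CPM in OE-WD. Its genotypes overlapped, with a log2 difference of 0.20 ± 0.091 (edgeR adjusted p = 0.192). In limma on log2(FPKM + 1) the Notch2 difference was 0.097. The 1 added there exceeds its mean of 0.893 FPKM, which by itself shrinks a log2 difference. It missed the unadjusted threshold with no filter on low counts, in limma at both pseudocounts and without any of several single libraries.

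The remaining Notch genes had average genotype differences that missed both thresholds. Dll4, the endothelial ligand, had the widest error, 0.37 ± 0.23 on the log2 scale, and its levels were 9.89, 8.28 and 7.15 CPM in CT-CTD, 14.3, 8.99 and 3.16 CPM in CT-WD, 13.2, 14.9, 15.6 and 8.52 CPM in OE-CTD and 9.77, 10.1, 10.6 and 7.95 CPM in OE-WD. The CT-WD libraries alone spanned the whole range of the other groups except for the values of OE-CTD 2 and OE-CTD 3. Dll4 was not called with all libraries or without CT-WD 3, and it was called without CT-WD 1. Notch1, the main endothelial receptor of arterial programmes, had 11.9, 13.6 and 12.1 CPM in CT-CTD, 14.6, 12.7 and 16.5 CPM in CT-WD, 11.7, 14.8, 16.2 and 15.1 CPM in OE-CTD and 12.4, 16.3, 14.2 and 18.8 CPM in OE-WD, with overlapping genotypes (0.14 ± 0.10). Jag1, a Jagged ligand found on endothelial and mural cells, had 16.7, 10.8 and 10.2 CPM in CT-CTD, 18.0, 12.7 and 13.3 CPM in CT-WD, 14.8, 15.6, 12.7 and 10.7 CPM in OE-CTD and 16.7, 13.5, 15.8 and 13.6 CPM in OE-WD. These Jag1 values overlapped throughout (0.059 ± 0.13). The estimates for Notch4 and for Hey1, a target with a role in arterial fate, were below 0, at -0.14 ± 0.067 and -0.17 ± 0.16. The Hey1 value includes CT-WD 3 at 12.05 CPM, against 7.56 and 6.67 CPM in CT-WD 1 and CT-WD 2.

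**Figure D2:**
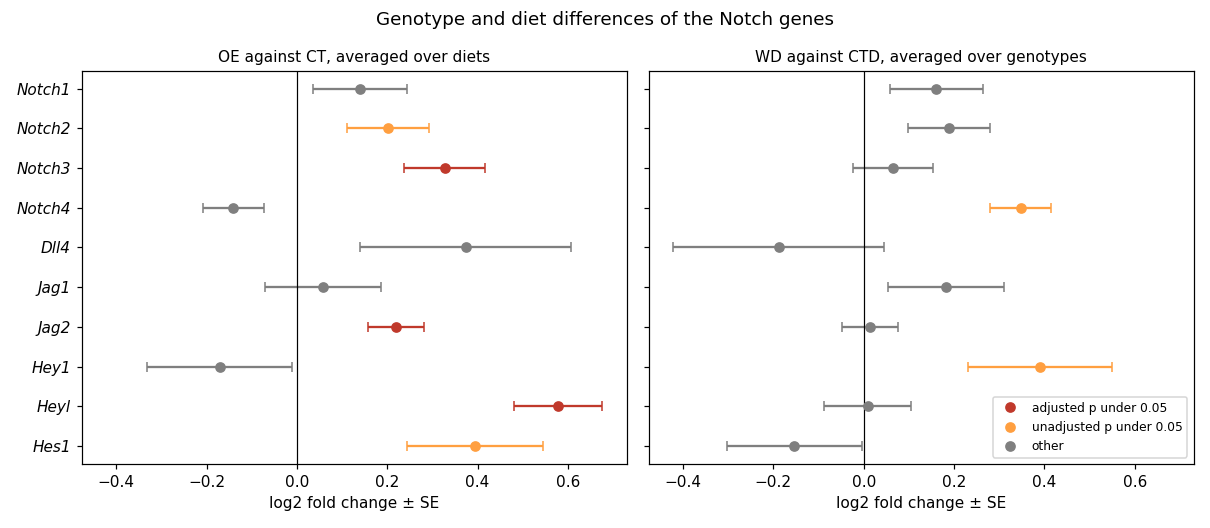
Log2 fold change ± SE of each Notch gene (horizontal axis) for OE against CT averaged over diets and for WD against CTD averaged over genotypes, from edgeR; colours mark the threshold passed. Heyl, at 0.58, is the largest genotype difference called, and Notch4, at 0.35, is past the unadjusted threshold for diet.

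Each diet was also examined separately. In OE-WD against CT-WD, 1 of 10 Notch genes was called by edgeR, Heyl, 2 of 10 by DESeq2, Heyl and Notch3, and 0 by limma. Of all genes tested, edgeR called 0.725%, or 112, DESeq2 called 573, and limma called 48 or 38, with 1 or 0.1 added to FPKM. In edgeR, 3 of 10 had an unadjusted p under 0.05, Heyl, Notch3 and Jag2, against 16.9%. In OE-CTD against CT-CTD, 0 of 10 were called by edgeR and 1 of 10 by DESeq2, which was Heyl, and none by limma. Of all genes in this comparison, edgeR called 2.67%, DESeq2 called 799, and limma called 230 or 260, with 1 or 0.1 added to FPKM. The unadjusted count there was 3 of 10, Heyl, Hes1 and Jag2, against 15.9%. Hes1 differed on CTD by 0.53 ± 0.21 (edgeR adjusted p = 0.228), and Jag2 by 0.20 ± 0.088 on CTD (edgeR adjusted p = 0.281) and 0.24 ± 0.088 on WD (edgeR adjusted p = 0.187). With the replicate number as a block, Hes1 was called on CTD (edgeR adjusted p = 0.0418). Notch2 did not overlap between OE-WD, 9.45 to 11.01 CPM, and CT-WD, 7.25 to 9.28 CPM, with an unadjusted p of 0.0828. Comparisons that include the same group share its libraries and are not independent of each other.

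A further question was whether western diet moved these genes. No Notch gene was called for diet by edgeR in either genotype or on average. In CT-WD against CT-CTD the counts were 0 of 10 called, also by DESeq2 and limma, and 2 of 10 at the unadjusted level, Notch4 and Hey1, against 0% and 7.28% of all genes in edgeR, where DESeq2 called 35 genes. In OE-WD against OE-CTD they were 0 of 10, also by DESeq2 and limma, and 1 of 10, Notch4, against 0.00647% and 4.2%. Averaged over genotypes they were 0 of 10 by edgeR, 1 of 10 by DESeq2, which was Notch4, 0 of 10 by limma, and 2 of 10 at the unadjusted level, Notch4 and Hey1, against 0.00647% and 5.96% in edgeR, where DESeq2 called 20 genes. The median log2 diet difference of the 10 genes was 0.11, against 0.0016 over all genes tested.

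Notch4, the receptor most restricted to endothelium, was the member with the smallest p for diet, though not called. The gene (ENSMUSG00000015468) lies on the plus strand of chromosome 17 at 34564268 to 34588503. Notch4 stood at 25.6, 25.3 and 25.0 CPM in CT-CTD and 29.9, 32.6 and 34.4 CPM in CT-WD. It was 22.5, 23.7, 21.7 and 24.1 CPM in OE-CTD and 29.5, 28.1, 25.1 and 33.9 CPM in OE-WD. Within each genotype every WD library was above every CTD library, and across genotypes only OE-WD 3 lay among the CT-CTD values. The log2 diet difference was 0.35 ± 0.10 in CT (unadjusted p = 0.00342; edgeR adjusted p = 0.476) and 0.34 ± 0.089 in OE (unadjusted p = 0.00147; edgeR adjusted p = 0.9999).

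Averaged over genotypes the Notch4 difference was 0.35 ± 0.068 (1.27-fold; unadjusted p = 0.000111), and after adjustment over all genes it missed the threshold in edgeR (edgeR adjusted p = 0.381). It was called by DESeq2 (adjusted p = 0.0140), by edgeR with no filter on low counts and without CT-WD 1 (edgeR adjusted p = 0.0491), within a range of 0.0140 to 0.797 over all settings. Diet calls over all genes also rose in these settings, from 1 to 20 with DESeq2, 68 with no filter and 36 without CT-WD 1. The interaction for Notch4 was -0.011 ± 0.14 (edgeR adjusted p = 0.998). Notch4 also made up more of the receptor FPKM in CT-WD, 33.0% ± 4.00, than in CT-CTD, 27.2% ± 0.596, OE-CTD, 23.2% ± 0.976, or OE-WD, 24.9% ± 2.73 (SD over the libraries of each group).

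Hey1 was the other gene past the unadjusted threshold for diet, and its value rested largely on CT-WD 3. The gene (ENSMUSG00000040289) lies on the minus strand of chromosome 3 at 8663359 to 8667256. Hey1 stood at 5.18, 6.74 and 6.23 CPM in CT-CTD, 7.56, 6.67 and 12.05 CPM in CT-WD, 8.01, 5.25, 5.77 and 4.64 CPM in OE-CTD and 7.82, 6.59, 8.42 and 5.34 CPM in OE-WD. The groups overlapped and CT-WD 3 stood highest. In CT the log2 diet difference was 0.53 ± 0.24 (edgeR adjusted p = 0.667), and without CT-WD 3 it was 0.24. Averaged over genotypes it was 0.39 ± 0.16 (edgeR adjusted p = 0.768), and 0.24 without CT-WD 3.

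The interaction tests whether the diet difference itself depended on genotype. No Notch gene was called by edgeR, DESeq2 or limma, and 0 of 10 had an unadjusted p under 0.05 in edgeR, against 0% and 5.92% of all genes tested in edgeR. DESeq2 called 9 genes of all tested. The interaction estimates ran from -0.52 ± 0.47 for Dll4 to 0.32 ± 0.18 for Notch3 on the log2 scale. Both depended on single libraries: Dll4 was past the unadjusted threshold without CT-WD 3, and Notch3 without CT-WD 1 or OE-WD 1. With errors of this size the data do not separate a shared diet response from one that differs by genotype.

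The wider pathway was followed through 53 further genes in 6 lists, of which 46 had enough counts to be tested. These lists, like the 10 genes and the marker lists below, were chosen with earlier results of these data known. Their counts are therefore a description and not a test of the pathway. The genes left out were the ligands Dll3, Dlk2 and Dner and the targets Hes2, Hes3, Hes5 and Hes7, none of which exceeded 12 counts in any library. For genotype averaged over diets, 4 of 46 were called higher in OE and 0 lower, and 8 were higher and 2 lower at the unadjusted level, against 8.49% and 23.9% of all genes. By role, 2 of 7 other targets and 2 of 12 ubiquitin ligases and trafficking proteins were called. None was called among 3 other ligands, 9 cleavage proteins, 5 glycosyltransferases or 10 nuclear complex members, and the unadjusted counts in these lists were 0, 2, 0 and 1. The median log2 difference of the 46 genes was 0.088, against -0.0012 over all genes.

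Bhlhe40, a circadian and stress-responsive repressor listed among the other targets, had 121, 102 and 81.7 CPM in CT-CTD and 124, 63.1 and 64.9 CPM in CT-WD. It had 185, 218, 207 and 190 CPM in OE-CTD and 159, 175, 164 and 165 CPM in OE-WD. All OE libraries were above all CT libraries, and the average log2 difference was 0.97 ± 0.14 (1.96-fold; edgeR adjusted p = 0.000928), called in 21 of 21 other settings. Ccnd1, which encodes cyclin D1, a driver of entry into the cell cycle, rose by 0.94 ± 0.20 (edgeR adjusted p = 0.0109), also in 21 of 21 other settings, with 0.59 in limma on log2(FPKM + 1). The Ccnd1 mean was 7.37 CPM and it overlaps Oraov1 on the opposite strand, at 12.6 CPM, so with the strand setting not stated some reads could belong to either gene.

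Numbl, an adaptor that can oppose Notch receptors, and Dtx4, a Deltex ubiquitin ligase, were the other genes called. Numbl rose by 0.59 ± 0.17 (edgeR adjusted p = 0.0437). This call was kept without CT-WD 1, OE-CTD 4 or OE-WD 1 and lost without any of the other 11 libraries, with edgeR adjusted p up to 0.116. It was also lost in limma at both pseudocounts, where the difference was as low as 0.25. Dtx4 rose by 0.53 ± 0.16 (edgeR adjusted p = 0.0498), with the call kept without CT-CTD 1, CT-WD 1 or OE-WD 1 and lost without any of the other 11, with edgeR adjusted p up to 0.133. It was lost in limma at both pseudocounts as well, where it was as low as 0.25. Psenen, a subunit of gamma-secretase, had the smallest p among the lower genes (-0.20 ± 0.060, unadjusted p = 0.00487; edgeR adjusted p = 0.0547). It was called without CT-CTD 1 or CT-WD 1 (edgeR adjusted p down to 0.00814), by DESeq2, and with a filter at a mean of 1 CPM. Rbpj, the DNA-binding partner of all Notch receptors, had similar means in the groups, 10.1, 10.6, 11.8 and 11.1 CPM in CT-CTD, CT-WD, OE-CTD and OE-WD.

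Within diets, Bhlhe40 was the pathway gene outside the 10 that edgeR called with all libraries, with 0.98 ± 0.19 on WD (edgeR adjusted p = 0.0325) and 0.97 ± 0.19 on CTD (edgeR adjusted p = 0.0166). On WD the call was lost with only the libraries compared and without 8 of the 14 libraries, CT-WD 2, CT-WD 3, OE-CTD 1 to 3 and OE-WD 2 to 4, with edgeR adjusted p up to 0.169, and on CTD without 4, CT-CTD 2, CT-CTD 3, OE-CTD 2 and OE-CTD 3, with edgeR adjusted p up to 0.103. The unadjusted counts were 9 of 46 in each diet, against 16.9% of all genes on WD and 15.9% on CTD. Those with the smallest p after Bhlhe40 were on WD Ccnd1 (1.24), Psenen (-0.30), Mib1 (0.35) and Numbl (0.76), and on CTD Hes6 (0.47), Dtx4 (0.61), Itch (-0.26) and Maml2 (0.40), all log2 differences. Several of these depended on the setting. With all libraries kept, the lowest values in another setting were 0.76 for Ccnd1 and 0.33 for Numbl on WD. On CTD they were 0.28 for Dtx4 and 0.14 for Maml2. On WD, leaving out CT-WD 1 gave calls for Ccnd1 (1.54, edgeR adjusted p = 0.0101), Psenen (-0.40, edgeR adjusted p = 0.00996) and Numbl (1.17, edgeR adjusted p = 0.00746). Ccnd1 was also called without CT-CTD 1 or CT-CTD 2, by DESeq2 and with no filter on low counts, Psenen by DESeq2 and Numbl with no filter, and on CTD Hes6 was called by DESeq2. No gene other than Bhlhe40 was among the leading 5 in both diets.

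For diet, edgeR called 0 of 46 pathway genes in CT, in OE or on average, with unadjusted counts of 2, 3 and 2, against 7.28%, 4.2% and 5.96% of all genes. These were Mib1 (-0.34) and Gata2 (0.53) in CT, Dtx1 (-1.06), Hes6 (-0.29) and Spen (0.22) in OE, and Dtx1 (-0.94) and Lfng (0.32) on average (the average includes the OE comparison). Dtx1, a Deltex ubiquitin ligase, had a mean of only 0.627 CPM. Single libraries moved some of these values: Mib1 was -0.22 without CT-CTD 2, Gata2 0.29 without CT-WD 3, Spen 0.11 without OE-WD 4 and the average for Dtx1 -1.45 without CT-WD 1. In limma on log2 FPKM, Dtx1 was closer to 0 at both pseudocounts. For the interaction edgeR called 0 of 46, and 4 had an unadjusted p under 0.05, against 5.92% of all genes, Adam10 (0.36), Hes6 (-0.44), Ep300 (0.42) and Mib1, a ubiquitin ligase needed in cells that send Notch signals (0.51 ± 0.15, unadjusted p = 0.00446; edgeR adjusted p = 0.825).

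Because Notch genes differ between cell types, markers of the cell types in muscle were followed beside them. For genotype averaged over diets, 6 of 14 endothelial markers were called higher and none lower in OE, against 8.49% of all genes called, with a median log2 difference of 0.25, and Cdh5, whose promoter drives the transactivator, rose by 0.36 ± 0.064 (edgeR adjusted p = 0.00390). The summed endothelial level was 572, 568 and 613 CPM in CT-CTD, 684, 630 and 719 CPM in CT-WD, 696, 711, 684 and 643 CPM in OE-CTD and 737, 733, 753 and 744 CPM in OE-WD. The lowest sums were thus those of CT-CTD and the highest those of OE-WD, with Eng the most abundant marker and no marker at 0 in any library. For diet averaged over genotypes 13 of 14 endothelial markers had estimates above 0 and none was called, with 6 higher and 1 lower at the unadjusted level and a median of 0.17. Their diet estimates ran from -0.26 to 0.42, a range that holds the Notch4 difference of 0.35. Of 8 arterial genes, 1 was called with genotype, Unc5b, at 0.91 ± 0.15 (edgeR adjusted p = 0.00287), and 0 with diet.

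Mural markers bear on Notch3 and Heyl, which mural cells are known to express. Of 9 mural markers, 2 were called higher in OE, Pdgfrb at 0.32 ± 0.085 (edgeR adjusted p = 0.0320) and Cspg4 at 0.72 ± 0.16 (edgeR adjusted p = 0.0115), and the median over the list was 0.087, where 8.49% of all genes were called. Their summed level was 685, 661 and 693 CPM in CT-CTD, 670, 615 and 673 CPM in CT-WD, 688, 694, 653 and 693 CPM in OE-CTD and 699, 712, 692.5 and 748 CPM in OE-WD. The genotypes overlapped in this sum. Abcc9 was the most abundant marker, from 204 CPM in OE-CTD 1 to 312 CPM in OE-CTD 4, and no marker was at 0. Its highest levels were in OE-CTD 4 and OE-WD 4 (312 and 308 CPM), the libraries with the highest muscle fibre sums. How far the mural sum followed mural cells alone was not tested. With each mural gene given the same weight, as the mean log2(CPM + 0.1) relative to the gene's mean over libraries, CT ran from -0.28 to 0.028 and OE from 0.0055 to 0.13, with less overlap than in the sum. For diet no mural marker was called, and the median was -0.0024.

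Fibroblast markers had the largest share of calls with genotype, 6 of 8 being called higher in OE with a median of 0.65, against 8.49% of all genes called. Their summed level was 517, 475 and 386 CPM in CT-CTD, 1085, 437 and 445 CPM in CT-WD, 1018, 1177, 1125 and 718 CPM in OE-CTD and 807, 1675, 992 and 837 CPM in OE-WD. CT-WD 1 lay within the OE range and all other CT libraries below it. CT-WD 1 was also the highest CT library for Heyl, Notch3 and Hes1, and the lowest of all 14 libraries for Jag2. Dcn was the most abundant fibroblast marker in each group and none was at 0. The part of these cell types in the Notch differences was not tested.

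The other marker lists gave fewer calls. For genotype the calls were 0 of 8 for macrophages (5 of 8 at the unadjusted level), 1 of 6 for satellite cells (Chodl, 0.67 ± 0.19, edgeR adjusted p = 0.0409), 0 of 6 for Schwann cells, 1 of 6 for adipocytes, 1 of 11 for epidermis and hair follicle (median 0.74), 0 of 4 for blood, 0 of 10 for muscle fibres and 1 of 7 for slow fibres, against 8.49% of all genes. Satellite cell markers, whose resting state depends on Notch signals, summed to 35.0 to 43.9 CPM over the 14 libraries, with overlapping groups. For genotype, 3 of the 6 had estimates above 0 and 3 below (lowest -0.22), with 3 higher and 1 lower at the unadjusted level. Cdh15, the most abundant, had means of 29.3, 29.1, 26.2 and 24.5 CPM in CT-CTD, CT-WD, OE-CTD and OE-WD. With each satellite gene given the same weight, CT ran from -0.45 to 0.15 and OE from -0.072 to 0.30. For diet averaged over genotypes none of these lists held a call. The epidermal list had 11 of 11 estimates higher on WD, 4 of them past the unadjusted level, with a median log2 difference of 1.08, larger than any Notch diet difference averaged over genotypes. Its summed levels overlapped between diets. CT-WD 2 and CT-WD 3 (24.8 and 39.2 CPM) lay within CT-CTD (19.7 to 65.4 CPM), and CT-WD 1 had 129 CPM. OE-WD 1 (34.3 CPM) lay within OE-CTD (16.4 to 58.2 CPM).

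**Figure D3:**
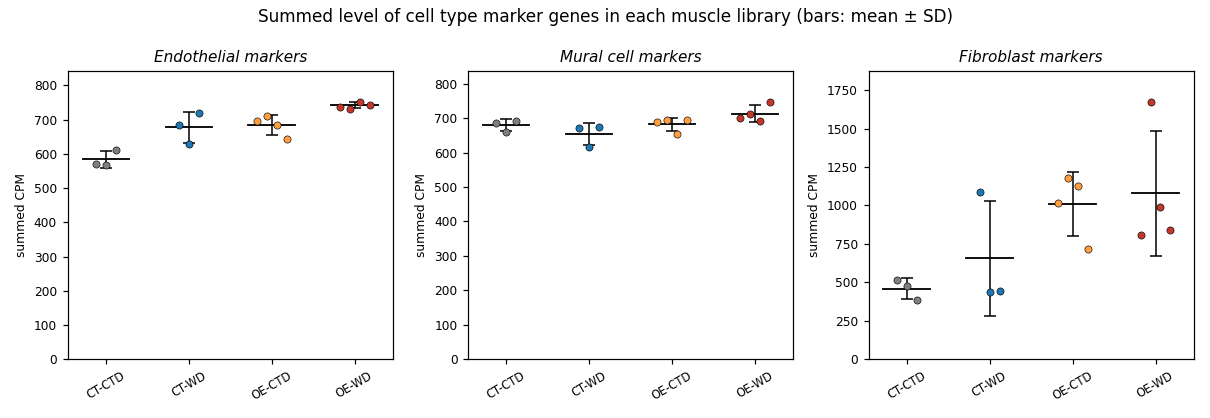
Summed CPM of 14 endothelial, 9 mural and 8 fibroblast marker genes in every library (vertical axes from 0, groups on the horizontal axes); points are libraries and bars are the group mean ± SD. Endothelial sums are lowest in CT-CTD and highest in OE-WD, mural sums overlap between genotypes, and fibroblast sums are high in the OE libraries and in CT-WD 1.

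As a description, the genes whose log2 CPM followed each Notch gene most closely over the 14 libraries were listed from 12343 candidates, with Pearson's r. All points share their libraries and include the group differences above. Heyl was followed by Col22a1 (r = 0.939), Rgl1 and Klhl4, Notch3 by Daam2 (r = 0.949), Frs2 and Chd3, and Jag2 by Cdc42ep1 (r = 0.883), Ccnd3 and Pls3. Hes1 was followed by Ndufs1 (r = 0.936), Hadhb and Acadm, which encode mitochondrial enzymes of respiration and fatty acid oxidation. Notch4 was followed by Adarb1 (r = 0.903), Mafg and Lvrn, Notch1 by Myh9 (r = 0.889), Myo1c and Iqgap1, and Notch2 by Rap2b (r = 0.877), Col4a5 and Il17d. For the remaining members the closest genes were Ptafr, Neurl3 and Cyth4 for Dll4 (r = 0.924 for the closest), Por and P2ry1 for Jag1 (r = 0.904) and Gm15446, Plk2 and Stmn2 for Hey1 (r = 0.901).

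Other transcripts overlapping the members had low mean levels, the highest being Gm14207, on the strand opposite Dll4, at 0.286 CPM. Whether reads in the shared stretches were lost from the members was not tested. The positions of the other members were chromosome 2, 26457903 to 26516663, minus strand for Notch1 (ENSMUSG00000026923), chromosome 3, 98013527 to 98150361, plus strand for Notch2 (ENSMUSG00000027878), chromosome 2, 119325784 to 119335962, plus strand for Dll4 (ENSMUSG00000027314) and chromosome 2, 137081456 to 137116644, minus strand for Jag1 (ENSMUSG00000027276). Notch1, Dll4 and Jag1 thus share chromosome 2, and Notch3 and Notch4 share chromosome 17.

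RefSeq promoter windows on GRCm38.p6, from 250 bases before to 50 bases after the transcription start, were at hand for 7 of the 10 genes, the receptors and the ligands, and not for Hey1, Heyl and Hes1. They were searched on both strands for 3 motifs of 6 letters. TGGGAA, the core bound by RBPJ, was found in 0 of 7 windows, against 25.6% of 32851 promoters, and CACGTG, the E-box bound by Myc, in 0 of 7, against 7.15%. CACNAG, the N-box bound by Hes-type repressors, was found in 4 of 7, against 42.5%, in Notch1 (3 matches), Notch3 (2 matches), Dll4 and Notch2 (1 match each). Absence of a match says only that the letters are not in this window, and a match is a description and not a binding site.

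The upstream sequences of Notch3, the receptor called with genotype, and Notch4, past the unadjusted threshold for diet, are given 5′ to 3′, for the bases outside the gene as the count table lists it. The Notch3 sequence is from the minus strand at chr17:32166891-32167140 and the Notch4 sequence from the plus strand at chr17:34564045-34564267, and capitals mark CACNAG on either strand, which starts 204 and 159 bases before the transcription start in Notch3 and does not occur in Notch4.
Notch3: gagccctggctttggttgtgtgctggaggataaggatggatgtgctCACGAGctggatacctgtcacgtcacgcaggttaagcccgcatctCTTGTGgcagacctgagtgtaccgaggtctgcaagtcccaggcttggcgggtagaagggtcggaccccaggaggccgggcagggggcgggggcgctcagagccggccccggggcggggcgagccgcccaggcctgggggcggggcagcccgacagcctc
Notch4: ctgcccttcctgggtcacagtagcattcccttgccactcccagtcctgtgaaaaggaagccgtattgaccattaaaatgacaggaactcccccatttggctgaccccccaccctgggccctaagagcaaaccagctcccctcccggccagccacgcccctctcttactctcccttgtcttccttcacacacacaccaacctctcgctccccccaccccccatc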

How the data were processed

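Poly-T purified RNA of 14 muscle libraries was sequenced. The authors aligned reads with HISAT2 2.0.5 to mm10 and deposited raw counts per gene from featureCounts 1.5.0-p3, with no parameters stated. The deposited FPKM values are counts divided by gene length and by a library total whose setting was not stated. That total was 79.93% to 97.97% of the summed counts, lowest in OE-CTD 4 and OE-WD 4.

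Counts were tested in R 4.3.3 with edgeR 4.0.16: filterByExpr, TMM factors and a quasi-likelihood fit of 4 group means. The 7 comparisons were OE against CT and WD against CTD, each within the other factor and averaged over it, and the interaction. Adjustment (Benjamini-Hochberg) ran over all 15458 genes in each comparison. The biological coefficient of variation was 17%, with a prior count of 2 for log2 CPM. Alternatives were RLE factors, DESeq2 1.42.0, no filter or a mean of at least 1 CPM, limma 3.58.1 on log2 FPKM with 1 or 0.1 added, a block for replicate number, only the libraries compared, a fold change over 1.5, and each library left out. Scripts were tested on simulated data. The members and lists were chosen with earlier results of these data known. All 10 members are named. The rule for naming other pathway genes was an adjusted p under 0.05, or up to 5 per comparison with the smallest unadjusted p under 0.05, and for likeness the 3 highest correlations among genes with a mean of at least 1 CPM, of which 1 is not reported here. Fold changes of members past an unadjusted p of 0.05 belong to the rule. Those of other members, Rbpj, and single marker genes were chosen after their values were seen.

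Replicate numbers were checked for pairing by the correlation of deviations from group means. Between CT-WD and CT-CTD these were 0.385, 0.123 and 0.203, all over the 0.1 taken as the limit for pairs, a pairing taken from the data, since the labels do not state one.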

Additional observations from a re-analysis of the deposited data

How the results depend on the processing

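Among log2 differences past an unadjusted p of 0.05, 0 of 347 values over 16 results of Notch genes changed direction, and 0 of 561 over 26 results of other pathway genes named by the rule. These differences were chosen for being past the threshold, and every setting reused the same libraries. A change of direction was therefore unlikely from the start, and its absence is no measure of stability. Differences of the other genes were not followed in this way. The counts of Notch genes past a threshold varied with the setting, and the cause was not tested. Called genes for genotype averaged over diets numbered 3, but 0 with a fold change over 1.5 required, 1 with limma on log2(FPKM + 1), and 1 to 4 with a library left out. For OE-WD against CT-WD the count of 1 became 2 with DESeq2 or no filter, 0 with limma at either pseudocount or with only the libraries compared, and 0 to 2 with a library left out. For OE-CTD against CT-CTD the count of 0 became 1 with DESeq2, no filter or only the libraries compared, and 0 to 1 with a library left out. For diet averaged over genotypes the count of 0 became 1 with DESeq2 or no filter, and 0 to 1 with a library left out. Calls over all genes moved in these settings too. With no filter they were 560 for OE-WD against CT-WD, 760 for OE-CTD against CT-CTD and 68 for diet averaged. With only the libraries compared they were 4 for OE-WD against CT-WD and 596 for OE-CTD against CT-CTD.

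At the unadjusted level, the count of 2 for diet in CT became 1 with limma at either pseudocount or with only the libraries compared (1 to 2 with a library left out), and the count of 1 for diet in OE became 3 with no filter and 2 with only the libraries compared (1 to 3). With a library left out the other counts ran from 2 to 4 for OE-WD against CT-WD (3 with all), 1 to 4 for OE-CTD against CT-CTD (3), 0 to 1 for the interaction (0), 4 to 7 for genotype averaged (5) and 1 to 3 for diet averaged (2). In limma at either pseudocount the count for genotype averaged was 4, with Notch2 lost. With DESeq2 that for diet averaged was 1, with Hey1 lost. With only the libraries compared that for OE-CTD against CT-CTD was 4, with Dll4 added.

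With the replicate block, the unadjusted counts became 2 for diet in OE and 6 for OE-WD against CT-WD, and the called count became 1 for OE-CTD against CT-CTD, which was Hes1. The other unadjusted counts became 7 for genotype averaged, with Dll4 and Notch4 added, 4 for OE-CTD against CT-CTD and 3 for diet averaged. In CT the counts stayed at 0 called and 2 unadjusted. Over all genes tested, unadjusted counts with the block also rose, from 650 to 887 for diet in OE and 2605 to 3023 for OE-WD against CT-WD. They rose from 3695 to 4209 for genotype averaged, 922 to 1124 for diet averaged and 1125 to 1370 for diet in CT. For OE-CTD against CT-CTD the rise was from 2462 to 3079 unadjusted and 413 to 687 called. Averaged over diets, the block gave an edgeR adjusted p of 0.0716 for Notch3 and 0.0154 for Hes1. Outside CT not every same-number correlation was over the limit of 0.1, and the numbers were not taken to mark pairs. The correlations were 0.0711, 0.138, 0.142 and 0.338 for diet in OE, -0.230, -0.158 and -0.0647 on WD, and 0.0465, -0.113 and -0.122 on CTD. Libraries correlated best with their own number in 5 of 6 cases for diet in CT, 7 of 8 for diet in OE, 0 of 6 on WD and 1 of 6 on CTD. By this measure a pairing across diets was no clearer in CT than in OE.

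Calls over all genes depended on single libraries. Genotype averaged over diets gave 1312, with a lowest count of 707 when CT-WD 2 was left out and a highest of 2487 when CT-WD 1 was. OE-WD against CT-WD gave 112, from 4 without OE-WD 2 to 1499 without CT-WD 1, and OE-CTD against CT-CTD gave 413, from 77 without CT-CTD 3 to 615 without CT-WD 1. Diet averaged over genotypes gave 1, with a highest count of 36 when CT-WD 1 was left out.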
